A study of Mus musculus with 2 samples.

Results

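Homing receptors are the cell surface proteins that steer leukocytes out of blood, through tissue and back into lymph. The 9 genes described here are Ccr6, Ccr7, Ccr9, Ccr2, Ccr10, Cxcr3, Cxcr5, Cxcr6 and S1pr1, taken as a list of names from the 31253 genes in the count tables. Each was found once by its symbol, and every kept barcode was counted. The members were not chosen by a threshold on these values, but they were chosen with earlier results of these data known.

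The cells came from dissociated whole intestine of 2 wild-type (WT) mice, profiled by droplet 3' single-cell RNA sequencing, 1 library per mouse. The butyrate library is from an animal given a 1% butyrate diet, butyrate being a product of microbial fibre fermentation. The RA library is from an animal of the collagen-induced arthritis (CIA) group, a model of rheumatoid arthritis, kept on standard chow. Strain, age and sex are not given in the sources used here, nor is the arthritis status of the animal on butyrate. Diet, mouse and library therefore cannot be told apart, no test between them was possible, and all intervals below are 95% intervals that cover counting error only.

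All of these proteins but S1PR1 are chemokine receptors, and S1PR1 reads the lipid sphingosine-1-phosphate. CCR7 brings naive lymphocytes and dendritic cells to lymphoid T zones through CCL19 and CCL21, and S1PR1 lets lymphocytes leave again. CXCR5 and CCR6 place B cells in follicles and beneath the follicle-associated epithelium through CXCL13 and CCL20. CCR9 and CCR10 are the gut receptors for CCL25, made in small intestine, and CCL28, made in colon. CCR2, CXCR3 and CXCR6 mark monocytes and effector or tissue T cells and read CCL2, CXCL9 with CXCL10, and CXCL16.

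Cells were assigned to gates by raw counts of unique molecular identifiers (UMIs), each standing for a captured transcript molecule. B cells held at least 1 UMI of Cd79a, plasma cells at least 20 of Jchain and 1 of Mzb1, T cells at least 1 of Cd3e, and macrophages at least 10 of the C1q genes together. Among T cells, a UMI of Trdc, Cd8b1 or Foxp3 marked γδ, CD8 and regulatory cells. The gates held 5108 butyrate and 3533 RA B cells, 73 and 105 plasma cells, 1355 and 743 T cells, and 107 and 130 macrophages. The T cell gate held 126 butyrate and 108 RA Trdc cells, 278 and 108 Cd8b1 cells, and 88 and 65 Foxp3 cells.

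The libraries held 67894477 UMIs (butyrate) and 61912439 UMIs (RA), and 8247 butyrate and 6909 RA barcodes were kept. Median depth was 5141 UMIs in butyrate and 4712 in RA, and the shallowest kept barcode had 2316 UMIs in butyrate but 501 in RA. Above the mitochondrial limit lay 15.4% of butyrate and 30.0% of RA barcodes. The libraries shared 27 barcode sequences, of which 25 were kept in butyrate and 20 in RA. The 6 B cell markers summed to 2906 CPM in butyrate and 2641 CPM in RA B cells, the 6 T cell markers to 2357 and 2269 CPM in T cells, and the 7 macrophage markers to 7754 and 8326 CPM in macrophages, with all of them detected in both libraries (CPM, UMIs per 1000000 UMIs of the gate). These lists include genes that set the gates, namely Cd79a, Cd3e and the C1q genes. The gates themselves therefore fixed part of these sums, which are no independent check of the cell types.

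The gates overlapped. Of the B cells, 19.6% (butyrate) and 20.5% (RA) also passed another gate, and of the T cells 25.6% and 27.3%. Epithelial markers summed to 293 CPM in butyrate and 614 CPM in RA T cells, and to 42.2 and 58.4 CPM in T cells that passed no other gate. Cells with a UMI of Epcam, the epithelial adhesion molecule meant as background, were not a clean epithelial set: 53.8% of 2092 in butyrate and 48.5% of 1694 in RA also passed a leukocyte gate. In that mixed Epcam gate Ccr7 had a UMI in 33.2% of butyrate and 26.3% of RA cells. A stricter background of cells with Epcam and Krt8 and no leukocyte gate, chosen after the overlap was seen, held 831 butyrate and 704 RA cells with median depths of 6105 and 7937 UMIs. There the share of cells with a UMI lay at or below 2.27% for every member in both libraries, and Ccr10 had 0 UMIs in both. Results that lean on overlapping cells are given below also for cells that passed no other gate.

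**Figure D1:**
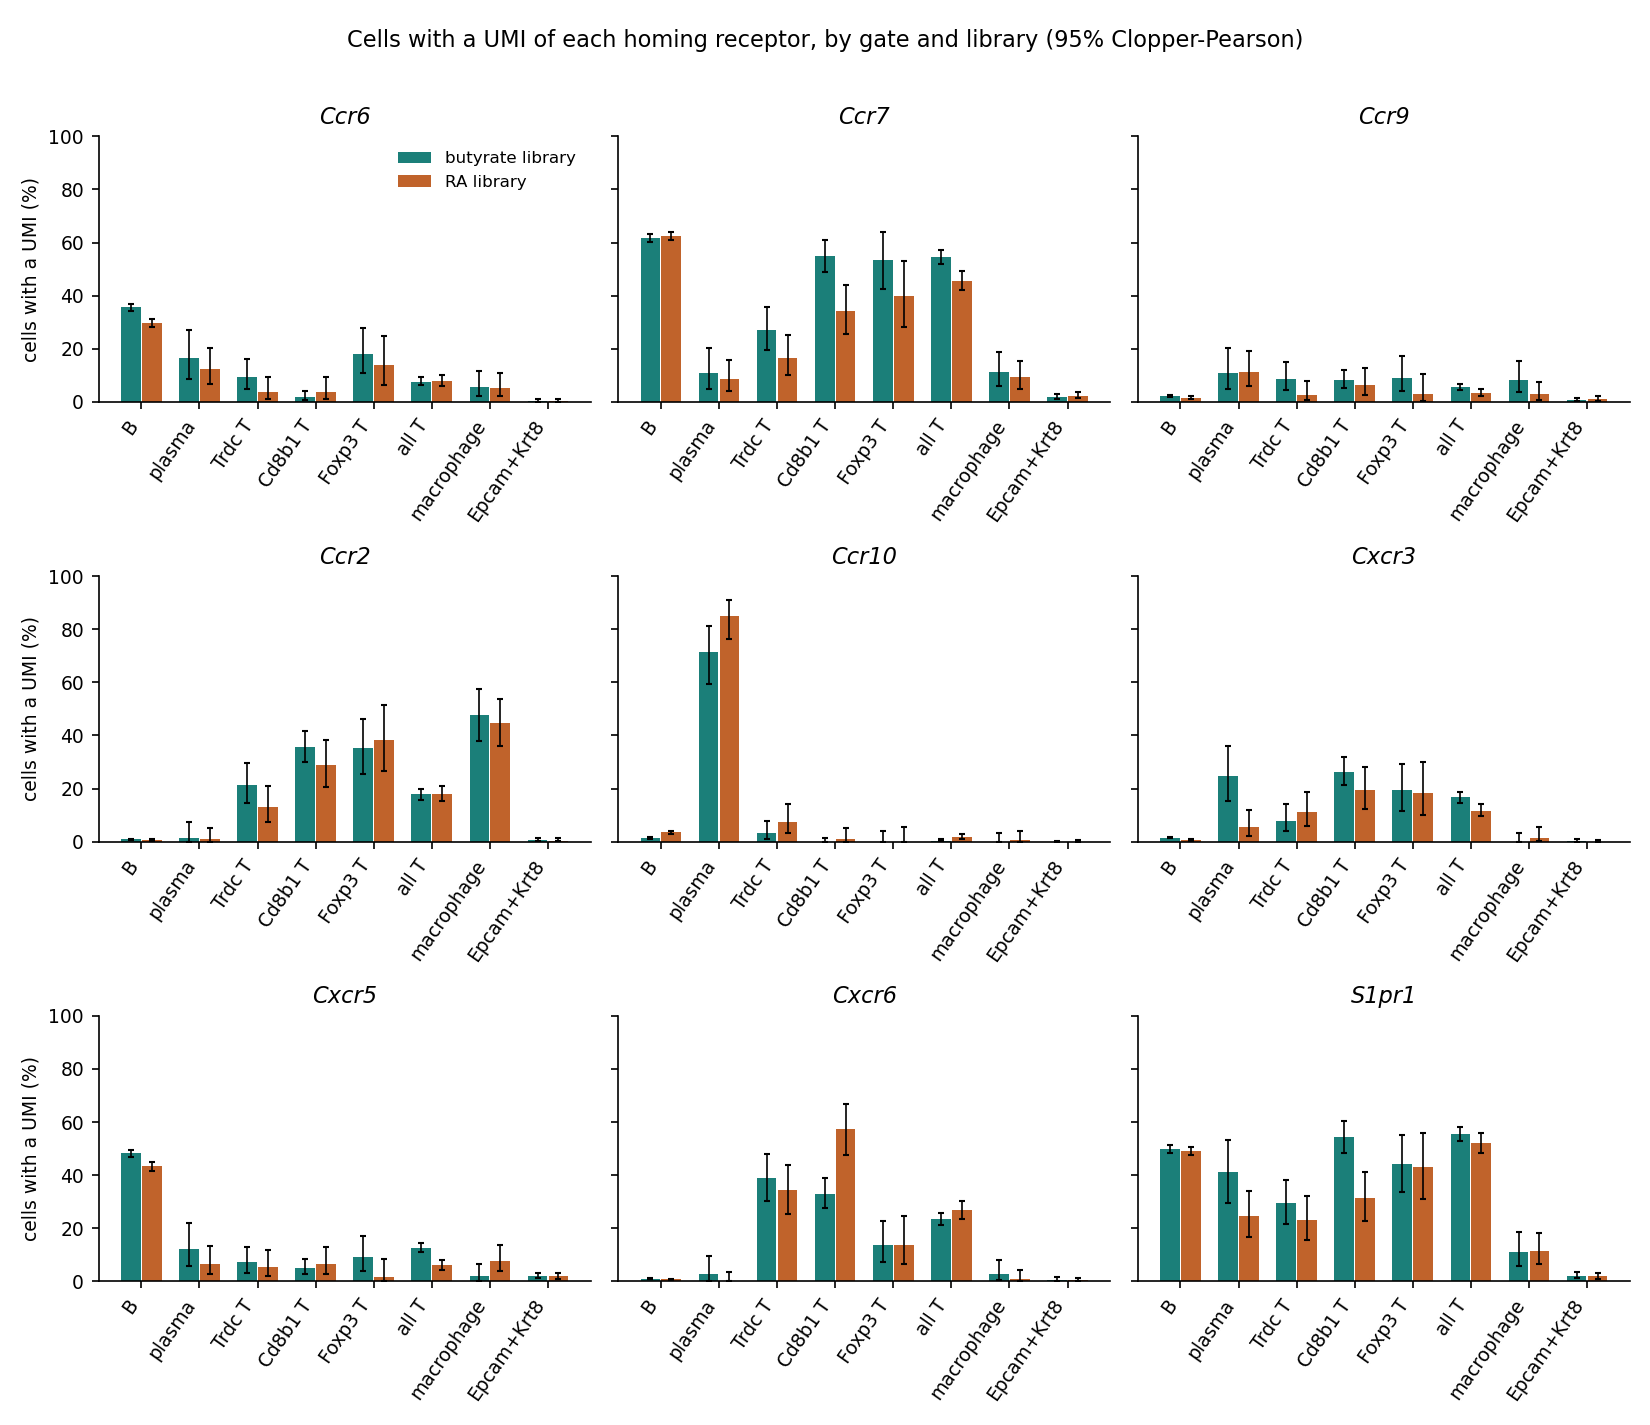
Share of cells with at least 1 UMI of each receptor (y axis, percent) in 8 gates (x axis) of the butyrate (left bars) and RA (right bars) libraries, with 95% Clopper-Pearson intervals. Ccr10 peaks in plasma cells (71.2% butyrate, 84.8% RA), Ccr2 is highest in macrophages, and Cxcr6 in Cd8b1 T cells stands at 33.1% in butyrate against 57.4% in RA.

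Over the 7 leukocyte gates there were 63 pairs of member and gate, of which 51 had at least 20 UMIs over both libraries. At a 1.5-fold threshold, 18 of them were higher and 6 lower in butyrate. The Trdc, Cd8b1 and Foxp3 gates lie within the T cell gate, and nearly all plasma cells also passed the B cell gate. The same UMIs can thus enter several pairs, so these counts are not of separate results. In T cells Ccr9, Cxcr3 and Cxcr5 were higher and Ccr10 lower, 3 and 1 of 9, where 4.4% of all 13317 genes were higher and 16.8% lower. In B cells Cxcr3 was higher and Ccr10 lower, against 4.69% and 19.8% of 15805 genes. In Trdc cells Ccr6, Ccr7 and Ccr2 were higher and Ccr10 lower among 8 members, against 9.98% and 12.2% of all genes. In Cd8b1 cells Ccr7 and Ccr9 were higher and Cxcr6 lower among 7, against 8.56% and 12.6%. The Ccr9 ratio there was 0.78 on 6 UMIs when cells were thinned to 1000 UMIs.

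In Foxp3 cells Ccr6, Ccr7 and Cxcr3 were higher and none lower among 6 members, against 10.4% and 14.6% of all genes. The Ccr6 ratio of 1.98 (0.96 to 4.41) in Foxp3 cells was 0.96 as a mean over cells and 0.37 on 3 UMIs when thinned. In macrophages Ccr9 was higher and none lower among 5, against 9.94% and 12.5%. In plasma cells Ccr6, Ccr7, Cxcr3, Cxcr5 and S1pr1 were higher and Ccr9 and Ccr10 lower among 7, against 37.3% and 6.83%. The plasma cell ratio ran from 1.17 to 8.27 for Ccr6 and from 0.51 to 5.22 for Cxcr5 over the alternatives. It ran from 0 to 3.77 for Ccr7 and from 0.25 to 4.57 for Ccr9, so that neither call kept its direction, on as few as 1 and 2 UMIs. The median log2 ratio (butyrate over RA) of the members was 0.09 in T cells, 0.10 in B cells and 0.82 in plasma cells, beside medians over all genes of -0.08, -0.05 and 0.39. The plasma cell gate was therefore shifted as a whole, and immunoglobulin genes took 20.5% of its UMIs in butyrate against 38.5% in RA.

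**Figure D2:**
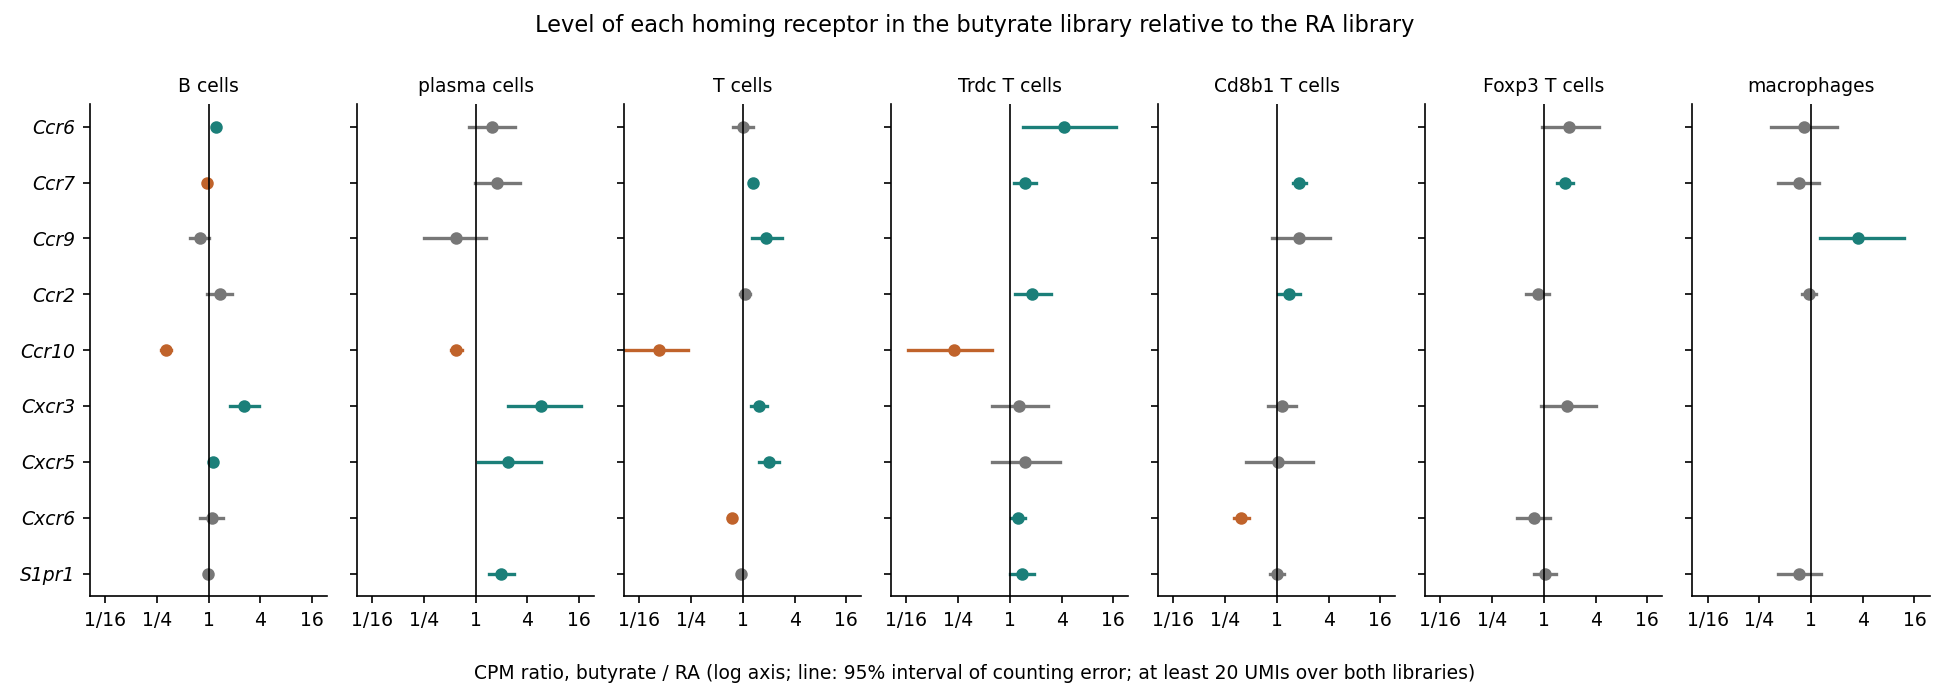
CPM ratio of butyrate over RA (x axis, log scale, 1 panel per gate) for each receptor with at least 20 UMIs over both libraries, with 95% intervals for counting error; green marks intervals above 1, orange below 1, grey those that hold 1. Ccr10 lies left of 1 in all 4 gates where it is drawn, and Cxcr6 in Cd8b1 T cells stands at 0.39. Those 4 gates (B, plasma, T and Trdc T cells) share cells and are not separate observations.

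Ccr7, the receptor for entry into lymph nodes, had its highest level outside the leukocyte gates, in Flt3-positive cells (54 butyrate, 56 RA), the population that includes dendritic cells. It stood there at 1308 CPM in butyrate and 696 CPM in RA, a ratio of 1.88 (interval 1.66 to 2.13). Nearly all of it lay in the few Flt3 cells that also held Fscn1, a gene of mature migratory dendritic cells: 15 of 16 such cells in butyrate and 14 of 14 in RA held Ccr7, with 3389 and 2087 CPM. Single cells reached 93 UMIs in butyrate and 63 in RA.

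In T cells Ccr7 reached 333 CPM in butyrate and 254 CPM in RA, a ratio of 1.31 (1.23 to 1.39). A UMI was found in 54.7% of butyrate and 45.6% of RA T cells. In T cells that passed no other gate the levels were 375 and 299 CPM, a ratio of 1.25 (1.17 to 1.34). By subset, Ccr7 was 491 CPM in butyrate and 282 CPM in RA Foxp3 cells, 296 and 162 CPM in Cd8b1 cells, and 116 and 77.1 CPM in Trdc cells. In Trdc cells the interval of the ratio was 1.11 to 2.03, but the ratio was 0.92 on 27 UMIs when cells were thinned to 1000 UMIs. B cells differed little, with 222 CPM in butyrate and 231 CPM in RA, a ratio of 0.96 (0.93 to 1.00).

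The share of T cells with a UMI of Lef1, a transcription factor of naive and memory-precursor T cells, moved together with Ccr7. Lef1 was found in 70.6% of butyrate and 56.5% of RA T cells, and in 85.3% against 42.6% of Cd8b1 cells, but in 72.9% and 72.2% of T cells with a Cd4 UMI. Within Lef1-positive Cd8b1 cells Ccr7 was 334 CPM in both libraries, a ratio of 1.00 (0.84 to 1.19). Within Lef1-positive Cd4 cells it was 437 CPM in butyrate and 434 CPM in RA. In all T cells without Lef1, by contrast, Ccr7 was at least 1.5-fold higher in butyrate. With the Lef1 shares of the T cells set alike in both libraries, the Ccr7 ratio over all T cells was 1.13 in place of 1.31.

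Regulatory cells behaved otherwise. Among Foxp3 cells the Lef1 share was 40.9% in butyrate and 43.1% in RA, and Ccr7 in those with Lef1 was 751 CPM in butyrate (36 cells) against 241 CPM in RA (28 cells), a ratio of 3.11 (2.29 to 4.29). In Foxp3 cells without Lef1 it was 265 CPM in butyrate and 323 CPM in RA. The Foxp3 cells are few, and 25 of their 280 Ccr7 UMIs in butyrate sat in 1 cell. B cell markers in the Foxp3 gate summed to 199.9 CPM in butyrate and 63.1 CPM in RA. In Foxp3 cells that passed no gate of another cell class the Ccr7 ratio was 2.14 (1.68 to 2.75), and the split by Lef1 was not made there.

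**Figure D3:**
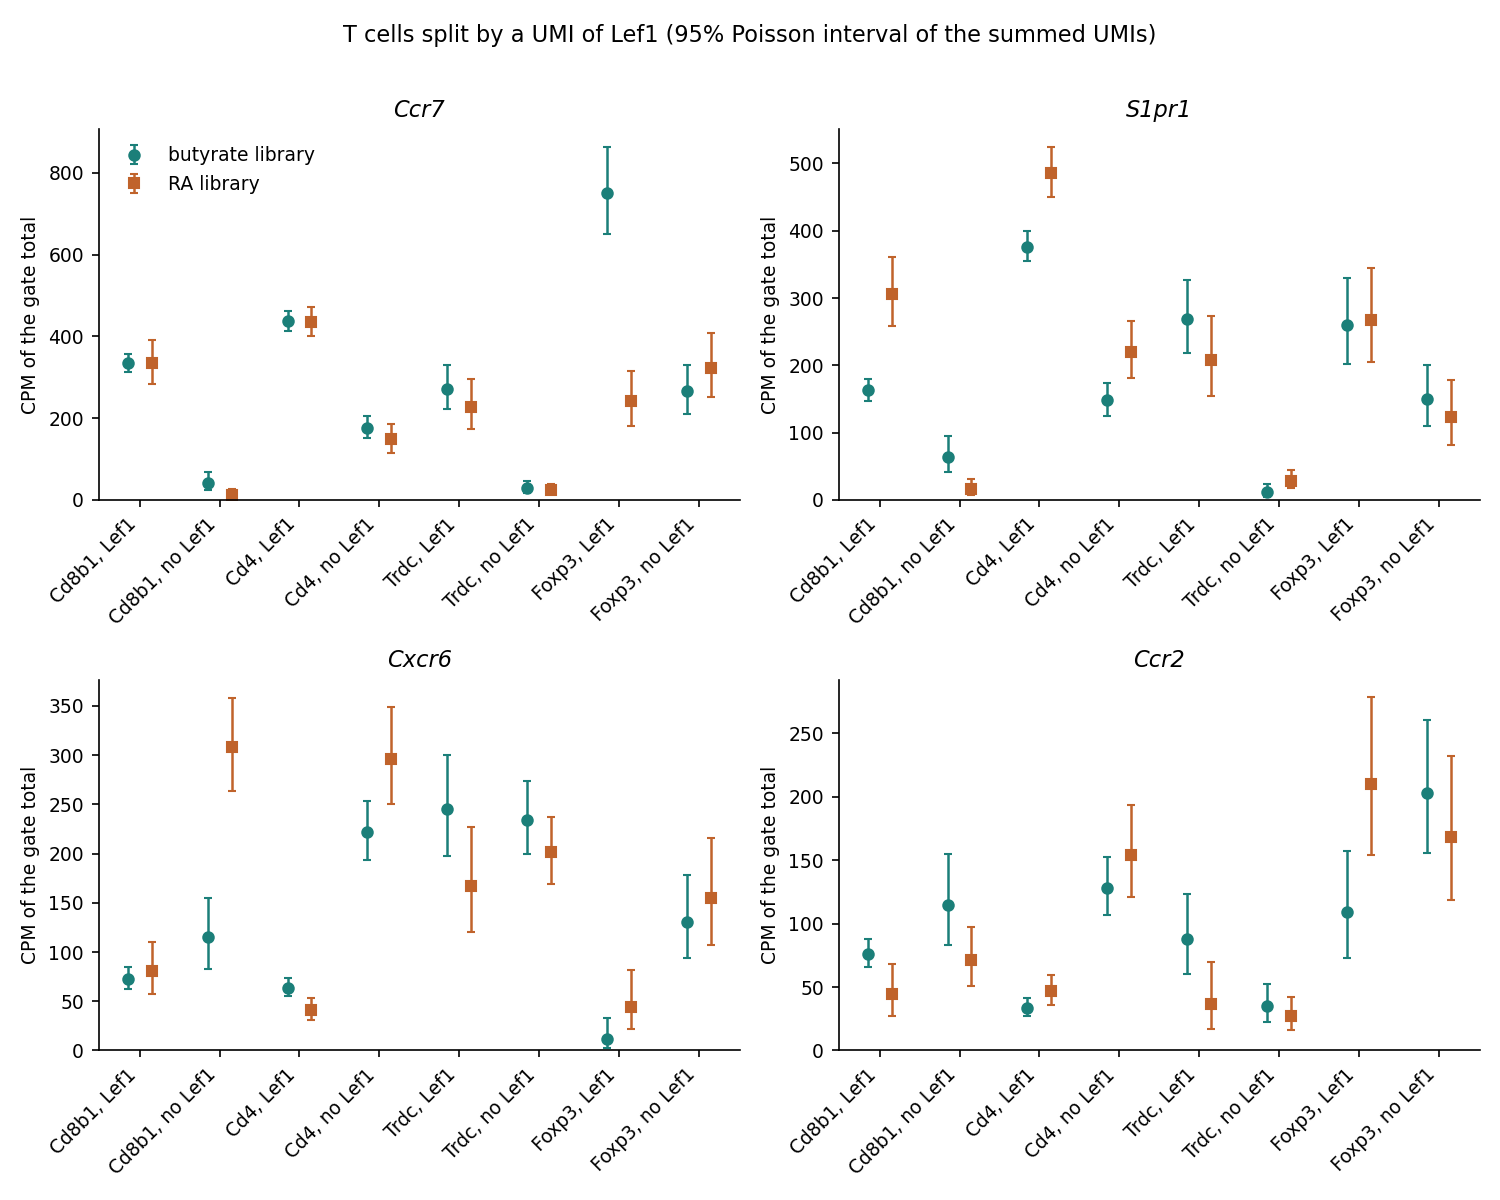
Level of Ccr7, S1pr1, Cxcr6 and Ccr2 (y axis, CPM of the gate total, 95% Poisson interval) in T cell subsets split by a UMI of Lef1 (x axis), butyrate as circles and RA as squares. Ccr7 stands at 334 CPM in both libraries in Lef1-positive Cd8b1 cells, while S1pr1 there is 163 CPM in butyrate and 307 CPM in RA.

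S1pr1, the exit receptor, stood highest in T cells without Trdc, Cd8b1 or Foxp3 and in Cdh5-positive cells outside the leukocyte gates, which carry an endothelial cadherin and where S1PR1 is known to keep vessel walls tight. Cdh5 cells had 384 CPM in butyrate (79 of 90 cells) and 299.7 CPM in RA (125 of 154 cells), a ratio of 1.28 (1.10 to 1.49). The T cells had 330.4 CPM in butyrate and 370.4 CPM in RA, a ratio of 0.89 (0.83 to 0.96). These T cells were above the Cdh5 cells in RA, while in butyrate the intervals of the 2 classes overlapped. B cells had 159 CPM in butyrate and 160.2 CPM in RA, a ratio of 0.99 (0.95 to 1.03).

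Over all T cells S1pr1 was 254 CPM in butyrate and 270.4 CPM in RA, a ratio of 0.94 (0.88 to 1.00). In T cells that passed no other gate it was 294 CPM in butyrate and 348 CPM in RA, a ratio of 0.85 (0.79 to 0.91). Within Lef1-positive T cells it was 312 CPM in butyrate and 403 CPM in RA, a ratio of 0.77 (0.72 to 0.83). The lower butyrate level held in Lef1-positive Cd4 cells (376 CPM butyrate, 486 CPM RA) and Cd8b1 cells (163 CPM butyrate, 307 CPM RA). In Cd8b1 cells without Lef1 it lay the other way, with 64.1 CPM in butyrate and 16.4 CPM in RA, on 24 and 9 UMIs.

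Cxcr5, the follicle receptor, was a B cell gene: 93.4% of butyrate and 93.3% of RA UMIs lay in the B cell gate. Its level there was 131 CPM in butyrate and 117 CPM in RA, a ratio of 1.12 (1.07 to 1.18), with a UMI in 48.3% of butyrate and 43.3% of RA B cells. In B cells that passed no other gate it was 149.6 CPM in butyrate and 151 CPM in RA, a ratio of 0.99 (0.94 to 1.05), so the excess of butyrate was not seen there.

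In T cells, where CXCR5 marks follicular helper cells, Cxcr5 stood at 25.4 CPM in butyrate and 12.7 CPM in RA, a ratio of 2.0 (1.54 to 2.63). B cell markers in the T cell gate summed to 204 CPM in butyrate and 148 CPM in RA. In T cells that passed no other gate, where those markers summed to 9.90 CPM in butyrate and 5.11 CPM in RA, Cxcr5 was 19.8 CPM in butyrate and 10.2 CPM in RA, a ratio of 1.93 (1.34 to 2.85). It had a UMI in 97 of 1008 butyrate and 20 of 540 RA cells there. Over the whole gate thinned to 1000 UMIs, the ratio was 3.38 on 43 UMIs. Among T cells with Cd4 and Lef1, the shares were 20.8% in butyrate and 8.38% in RA.

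Ccr6, the CCL20 receptor of B cells near the Peyer's patch dome and of type 17 T cells, also lay mostly in B cells, with 94.7% of butyrate and 91.9% of RA UMIs. Its level there was 98.1 CPM in butyrate and 79.9 CPM in RA, a ratio of 1.23 (1.16 to 1.30), and 35.7% of butyrate and 29.7% of RA B cells held a UMI. In B cells that passed no other gate the levels were 112 and 101 CPM, a ratio of 1.11 (1.03 to 1.18). After each B cell was thinned to 1000 UMIs, 9.96% of butyrate and 9.15% of RA cells held Ccr6.

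B cells without Ighd and outside the plasma cell gate were split by their most abundant heavy chain. In those led by Igha, Ccr6 was 69.0 CPM in butyrate (184 cells) and 32.0 CPM in RA (151 cells), a ratio of 2.16 (1.61 to 2.92). In those led by Ighm it was 82.9 CPM in butyrate and 93.6 CPM in RA, a ratio of 0.89 (0.73 to 1.08). The Igha-led cells also held more Ccr7 in butyrate (149.6 CPM against 60.5 CPM in RA) and more Cxcr5 (81.0 CPM against 45.3 CPM in RA). Their Ccr10 ran the other way, with 20.6 CPM in butyrate and 64.9 CPM in RA.

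In T cells the Ccr6 result depended on the overlap. Over the whole T cell gate it was 16.4 CPM in both libraries, but in T cells that passed no other gate it was 9.48 CPM in butyrate and 18.3 CPM in RA, a ratio of 0.52 (0.36 to 0.74). With the highest doublet scores removed from the whole gate it was 0.67 (0.49 to 0.90). In Trdc cells 12 of 126 butyrate cells held Ccr6, against 4 of 108 RA cells, a ratio of 4.27 (1.42 to 17.2) on 19 butyrate and 4 RA UMIs, and 1.95 on 9 UMIs with the highest doublet scores removed. In T cells with Itgae, the integrin of intraepithelial lymphocytes, Ccr6 was 4.70 CPM in butyrate and 21.8 CPM in RA.

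Ccr9, the receptor that guides T cells and plasma cell precursors to small intestine, was rare in lymphocytes. Its highest level was in Flt3-positive cells outside the leukocyte gates, with 149.9 CPM in butyrate and 170.0 CPM in RA, a ratio of 0.88 (0.65 to 1.19). Most of it lay in the cells that also held Siglech, a receptor of plasmacytoid dendritic cells: 6 of 6 in butyrate and 8 of 9 in RA had Ccr9, with 73 and 91 UMIs. Such cells also held Ccr2, with 5 of 6 in butyrate and 6 of 9 in RA. Flt3 cells with Fscn1 had 2 Ccr9 UMIs in butyrate and 0 in RA.

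T cells had 11.5 CPM of Ccr9 in butyrate and 6.10 CPM in RA, a ratio of 1.89 (1.29 to 2.83), and a UMI was found in 5.46% of butyrate and 3.23% of RA cells. In T cells that passed no other gate the ratio was 1.44 (0.88 to 2.43), from 8.92 CPM in butyrate and 6.19 CPM in RA, an interval that holds 1. T cells with Itgae had 34.7 CPM in butyrate and 11.6 CPM in RA, a ratio of 2.98 (1.69 to 5.55), and 13 of the 59 butyrate UMIs were in 1 cell. Macrophages had 18 Ccr9 UMIs in butyrate and 5 in RA, a ratio of 3.56 (1.27 to 12.3), and 7 and 5 UMIs where they passed no other gate, a ratio of 1.58 (0.43 to 6.33). In B cells 42 of the 110 RA UMIs were in 1 cell, so the B cell levels of 4.07 CPM in butyrate and 5.20 CPM in RA give no order.

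Ccr10, the CCL28 receptor of IgA plasma cells, was mostly a plasma cell gene. The plasma cell gate, 0.885% of butyrate and 1.52% of RA cells, held 75.8% of butyrate and 75.0% of RA UMIs. The level was 153 CPM in butyrate and 258 CPM in RA, a ratio of 0.59 (0.51 to 0.69), and 52 of 73 butyrate and 89 of 105 RA cells held a UMI. The 7 plasma cell markers summed to 56961 CPM in butyrate and 128032 CPM in RA plasma cells, and their part in the Ccr10 difference was not tested. Per 1000000 UMIs that were not immunoglobulin, Ccr10 was 193 in butyrate and 420.2 in RA, so the difference was wider on that scale. Thinned to 1000 UMIs, 16.4% of butyrate and 23.1% of RA plasma cells held Ccr10, with overlapping intervals.

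Plasma cells led by Igha were 59 of 73 in butyrate and 100 of 105 in RA, and in these alone Ccr10 was 186 CPM in butyrate and 268 CPM in RA, a ratio of 0.69 (0.59 to 0.81). Of the plasma cells, 20 in butyrate and 24 in RA passed no gate but the B cell one, and these had 96.9 CPM in butyrate and 193 CPM in RA. The Ccr10 of the B cell gate, 9.69 CPM in butyrate and 30.2 CPM in RA, was mostly that of plasma cells: without them it was 2.05 and 7.38 CPM. Foxp3 cells had 0 Ccr10 UMIs in 88 butyrate and 65 RA cells, which allows a share of cells with a UMI of up to 3.41% and 4.62% and sets no limit on cells that express the gene below detection.

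T cells with Ccr10 were 6 of 1355 in butyrate and 12 of 743 in RA, while plasma cell markers in the T cell gate summed to 502 CPM in butyrate and 1363 CPM in RA. In T cells that passed no other gate 3 of 1008 butyrate and 6 of 540 RA cells held Ccr10, and plasma cell markers summed to 101 and 145 CPM with Mzb1 at 0. All 3 and all 6 of those cells also held Cxcr6. The ratio there was 0.13 (0.02 to 0.48) on 3 butyrate and 12 RA UMIs. Trdc cells had 4.74 CPM of Ccr10 in butyrate and 21.1 CPM in RA, on 5 and 20 UMIs, where plasma cell markers summed to 253 and 2032 CPM. The part of the plasma cell RNA in these differences was not tested.

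Cxcr3, the interferon-linked receptor of type 1 effector cells, lay mainly in T cells, with 71.5% of butyrate and 77.8% of RA UMIs. It stood at 34.9 CPM in butyrate and 22.7 CPM in RA T cells, a ratio of 1.54 (1.26 to 1.90), and 16.7% of butyrate and 11.7% of RA cells held a UMI. In T cells that passed no other gate it was 40.4 CPM in butyrate and 22.9 CPM in RA, a ratio of 1.77 (1.38 to 2.28). When thinned it was 3.01 on 65 UMIs. The levels were highest in Foxp3 cells (50.8 CPM butyrate, 27.0 CPM RA) and Cd8b1 cells (45.8 CPM butyrate, 40.2 CPM RA), whose intervals overlapped in both libraries, and lower in Trdc cells (19.0 CPM butyrate, 14.8 CPM RA). Of these 3 subsets, none had a ratio whose interval excluded 1. In T cells without Trdc, Cd8b1 or Foxp3 it was 31.2 CPM in butyrate and 19.1 CPM in RA, a ratio of 1.63 (1.23 to 2.20).

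Outside T cells, Cxcr3 was found in 18 of 73 butyrate and 6 of 105 RA plasma cells, with 17.7 and 3.09 CPM, a ratio of 5.74 (2.34 to 16.9). No cell held more than 3 of these UMIs, and the alternatives gave ratios of 4.39 to 13.1. B cell markers in the plasma cell gate summed to 794 CPM in butyrate and 543 CPM in RA, and their part in this difference was not tested. In plasma cells led by Igha the counts were 13 of 59 in butyrate and 5 of 100 in RA. Over all B cells the ratio was 2.57 (1.76 to 3.84), but 1.21 on 11 UMIs when thinned. B cells with Ighd had 1.04 CPM in butyrate and 1.16 CPM in RA, while B cells with neither Ighd nor the plasma cell gate had 10.2 and 2.48 CPM, a ratio of 4.12 (2.33 to 7.84).

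Cxcr6, the CXCL16 receptor of tissue-resident T cells, had 80.3% of its butyrate and 77.7% of its RA UMIs in T cells. The level was 101 CPM in butyrate and 135 CPM in RA, a ratio of 0.75 (0.68 to 0.82), and 0.73 (0.66 to 0.81) in T cells that passed no other gate. The subsets differed. Cd8b1 cells had 78.4 CPM in butyrate and 203 CPM in RA, a ratio of 0.39 (0.32 to 0.47), and a UMI was found in 33.1% of butyrate against 57.4% of RA cells. Trdc cells had 238 CPM in butyrate and 192 CPM in RA, a ratio of 1.24 (1.02 to 1.51), and Foxp3 cells had 75.4 and 99.2 CPM, a ratio of 0.76 (0.49 to 1.18) that was 0.39 with exclusive gates and 0.20 on 14 UMIs when thinned. In butyrate Trdc cells stood above every other class, while in RA the intervals of Trdc and Cd8b1 cells overlapped.

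The Cd8b1 difference was found in the cells without Lef1, which were 41 of 278 in butyrate and 62 of 108 in RA. There Cxcr6 was 115 CPM in butyrate and 308 CPM in RA, a ratio of 0.37 (0.26 to 0.52), and 16 of 41 butyrate against 48 of 62 RA cells held a UMI. In Lef1-positive Cd8b1 cells it was 73.0 CPM in butyrate and 80.4 CPM in RA, a ratio of 0.91 (0.64 to 1.32). With the Lef1 shares of all T cells set alike, the Cxcr6 ratio in T cells was 0.88 in place of 0.75. The 4 CD8 markers (Cd8a, Cd8b1, Gzma, Gzmb), 2 of them granzymes, summed to 1848 CPM in butyrate and 5111 CPM in RA Cd8b1 cells, and their part in the Cxcr6 difference was not tested.

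Among the leukocyte gates Ccr2, the receptor that brings monocytes to tissue, was highest in macrophages, with 246 CPM in butyrate and 258 CPM in RA, a ratio of 0.95 (0.80 to 1.14). A UMI was found in 51 of 107 butyrate and 58 of 130 RA cells, and single cells reached 14 UMIs in butyrate and 23 in RA. The share was larger in the few Flt3 cells with Siglech outside these gates, with 83.3% of 6 in butyrate and 66.7% of 9 in RA. In macrophages that passed no other gate the levels were 309 CPM in butyrate and 323 CPM in RA, a ratio of 0.96 (0.79 to 1.17). Ly6c2, a gene of blood monocytes, was found in 3 butyrate and 2 RA macrophages, and 48 of the 51 butyrate and 57 of the 58 RA macrophages with Ccr2 lacked it. Plac8, another gene of the monocyte list, was found in 42.1% of butyrate and 25.4% of RA macrophages, and Chil3 in 0.935% and 0.769%.

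Foxp3 cells came next with 159.5 CPM of Ccr2 in butyrate and 189 CPM in RA, a ratio of 0.84 (0.62 to 1.15) that was 0.48 (0.32 to 0.72) with exclusive gates. In RA their interval overlapped that of macrophages. Cd8b1 cells had 81.2 CPM in butyrate and 58.8 CPM in RA, a ratio of 1.38 (1.04 to 1.87). Trdc cells had 54.1 CPM in butyrate and 29.6 CPM in RA, a ratio of 1.83 (1.14 to 2.99), or 10.3 on 13 UMIs when thinned. T cells with Cd4 had 56.9 CPM in butyrate and 74.7 CPM in RA, a ratio of 0.76 (0.61 to 0.95), so the subsets lay on either side of 1 and the whole T cell ratio was 1.06 (0.93 to 1.22). B cells held 3.61 CPM in butyrate and 2.69 CPM in RA.

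Ccr7 and Cxcr6 were mostly found in different T cells. Among T cells that passed no other gate, those with Ccr7 held S1pr1 in 78.9% of 555 butyrate and 85.8% of 261 RA cells, against 30.7% and 29.7% of those without. Cxcr6 was found in 7.57% of Ccr7-positive butyrate and 6.51% of such RA cells, against 42.4% and 43.7% of Ccr7-negative cells. S1pr1 was found in 35.9% of 234 butyrate and 33.8% of 139 RA cells with Cxcr6, against 63.7% and 64.8% of those without. Median depth was 6186 UMIs with and 6226 UMIs without Ccr7 in butyrate, and 6355 and 5811 UMIs in RA. Thinned to 1000 UMIs, Cxcr6 was found in 1.89% of Ccr7-positive and 11.6% of Ccr7-negative butyrate cells, and in 2.52% and 13.1% of RA cells.

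Cxcr6 and Ccr2 were found together. Of Cxcr6-positive T cells, 50.9% of 234 in butyrate and 54.0% of 139 in RA held Ccr2, against 6.46% and 5.99% of Cxcr6-negative cells. Cxcr3 was found in 30.8% of Cxcr6-positive butyrate and 20.9% of such RA cells, against 13.6% and 7.48%. Ccr6-positive T cells held Cxcr6 in 17 of 43 butyrate and 21 of 39 RA cells. Among all T cells that passed no other gate, Cxcr6 was found in 234 of 1008 butyrate and 139 of 540 RA cells. Over the whole T cell gate in butyrate, Ccr6-positive cells were deeper, with a median of 9112.5 against 6511 UMIs. The part of depth in this pair was not tested. In B cells outside the plasma gate, Ccr6 and Cxcr5, another pair, were not found in different cells. Cxcr5 was found in 55.1% of Ccr6-positive and 45.3% of Ccr6-negative butyrate cells, and 50.5% and 41.8% of RA cells. The Ccr6-positive cells were deeper (5070 against 4362 UMIs in butyrate, 4636 against 4000 UMIs in RA).

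**Figure D4:**
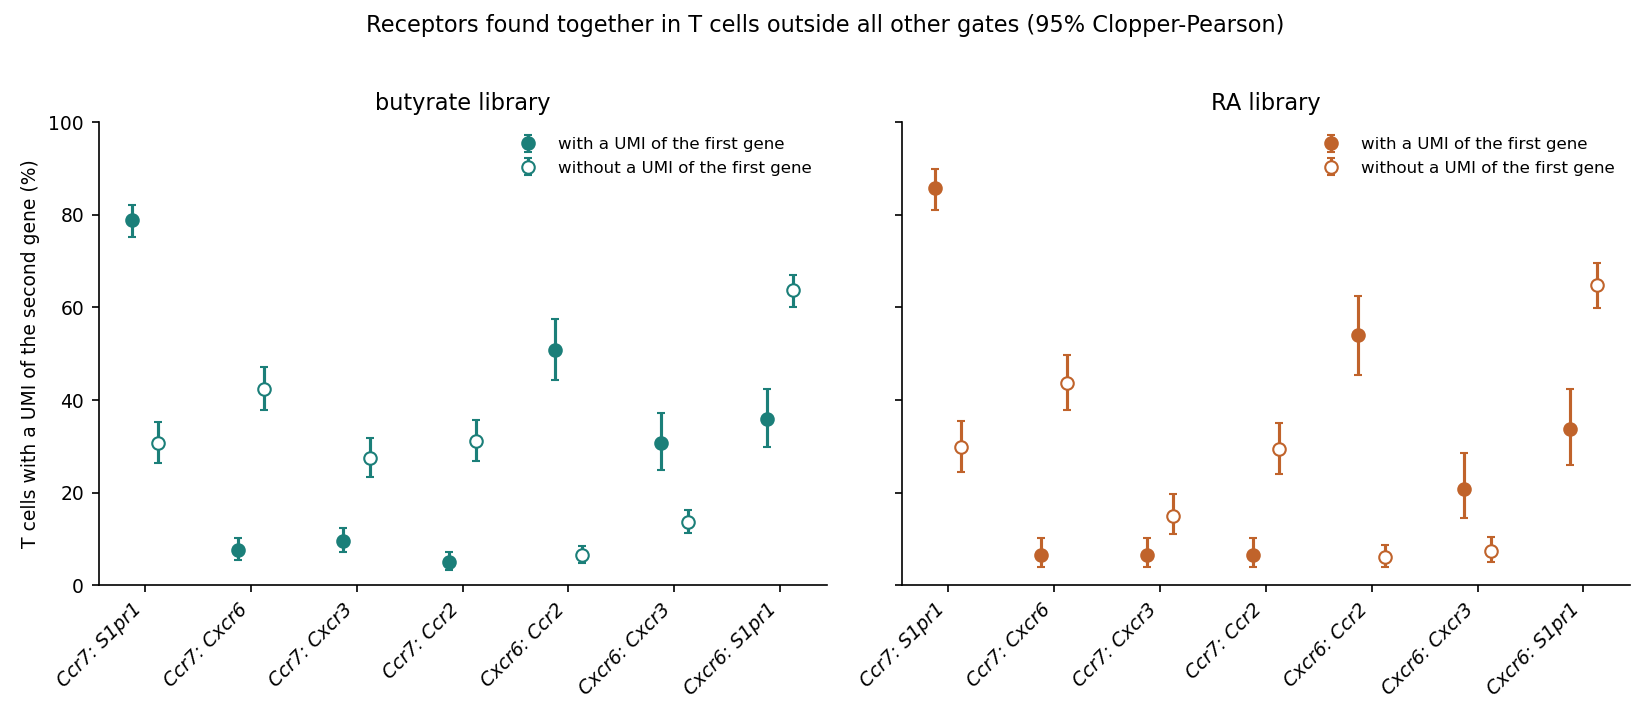
Share of T cells outside all other gates (y axis, percent, 95% Clopper-Pearson interval) with a UMI of the second gene of each pair, among cells with (filled) and without (open) a UMI of the first, butyrate at left and RA at right. S1pr1 goes with Ccr7 (78.9% butyrate and 85.8% RA) and Ccr2 with Cxcr6 (50.9% butyrate and 54.0% RA), while Cxcr6 lies mostly outside Ccr7-positive cells.

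The genes most alike to each member were found over 20 points, 10 classes of cells in each library, by Pearson's r of log2(CPM + 10) among 13478 genes. The points share 2 libraries, and some cells lie in more than 1 class, such as those of the mixed Epcam gate, so r is given as a description. Ccr10 went with Fkbp11 (r = 0.97), Ssr4 and Derl3, genes of protein folding and export in the endoplasmic reticulum. Cxcr6 went with Cd96 (r = 0.98), an adhesion receptor of T and NK cells, Acpp and Actn2. Cxcr5 went with Fcmr (r = 0.94), the IgM receptor, Dmxl1 and Gm47371. Ccr6 went with Slc9a7 (r = 0.90), Ighm, the IgM heavy chain, and Btla, an inhibitory lymphocyte receptor.

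For the other members, Ccr7 went with Gpcpd1 (r = 0.94), Gpr183, a receptor that positions lymphocytes and dendritic cells, and Gpr132. S1pr1 went with Gimap6 (r = 0.91) and Gimap8, GTPases of lymphocytes. Cxcr3 went with Gimap7 (r = 0.95), Zfp53 and Lsm8, and Ccr2 with Otulinl (r = 0.92), S100a4 and Arl4c. Ccr9 went with Apol7c (r = 0.91) and Il12b, genes of dendritic cells, and Iscu. Among the members themselves the highest values were 0.83 for Ccr6 with Cxcr5 and 0.81 for Cxcr3 with Cxcr6.

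Of the other genes that move leukocytes, the list of 45 held 15 for adhesion and exit, 11 further receptors and 19 ligands and vessel genes, 15 of the ligands usable. In T cells 14 adhesion and exit genes had at least 20 UMIs, 0 were 1.5-fold higher and 2 lower in butyrate, with a median log2 ratio of 0.01. In B cells it was 0 and 2 of 14, with a median of -0.08, and in macrophages 0 and 1 of 10, with -0.12. Over all genes, 4.4% were higher and 16.8% lower in T cells, 4.69% and 19.8% in B cells, and 9.94% and 12.5% in macrophages. For the adhesion and exit genes the counts of lower genes were thus near those shares. Further receptors and ligands were lower more often than that in T and B cells. Of 8 further receptors in T cells 2 were higher and 4 lower, and of 11 ligands 1 and 5. In B cells 0 of 8 receptors were higher and 3 lower, and of 15 ligands 1 and 7. The 2 adhesion and exit genes lower in T cells were Itgae and Gpr15. Itgae was 28.9 CPM in butyrate and 66.1 CPM in RA, a ratio of 0.44 (0.38 to 0.51). Gpr15 had a ratio of 0.53 (0.26 to 1.11) on 17 UMIs in each library. Named as the highest ratios of the list, Gpr183 was 198 CPM in butyrate and 149 CPM in RA T cells, a ratio of 1.33 (1.23 to 1.44). Itgal, a chain of the integrin LFA-1, was 166 CPM in butyrate and 128 CPM in RA T cells, a ratio of 1.30 (1.19 to 1.42).

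In B cells Cd69, the protein that pulls S1PR1 from the surface, was 367 CPM in butyrate and 259.6 CPM in RA, a ratio of 1.41 (1.37 to 1.46), and Gpr183 was 236 and 173 CPM, a ratio of 1.36 (1.31 to 1.42). In plasma cells Itgb1, the β1 integrin chain, was 212 CPM in butyrate and 45.8 CPM in RA, a ratio of 4.62 (3.65 to 5.90), and Gpr183 was 50.7 and 20.1 CPM. Klf2, the transcription factor that drives S1pr1, was 393 CPM in butyrate and 681 CPM in RA plasma cells, a ratio of 0.58 (0.52 to 0.63), while S1pr1 itself was 59.3 and 29.8 CPM, a ratio of 1.99 (1.42 to 2.80), or 1.27 (0.67 to 2.40) with stricter gates. In macrophages Selplg, the selectin ligand, was 36.3 CPM in butyrate and 74.3 CPM in RA, a ratio of 0.49 (0.32 to 0.73).

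Ligands were summed over all kept cells. For some of them 1 cell held a large part of the UMIs, while for Ccl25 the top cell held 4 of 765 in butyrate and 6 of 585 in RA. Ccl2 and Ccl7, ligands of CCR2, were 108 and 48.7 CPM in butyrate against 278 and 115 CPM in RA, with ratios of 0.39 (0.38 to 0.40) and 0.42 (0.40 to 0.44). Cxcl9, a ligand of CXCR3, was 13.01 CPM in butyrate and 6.74 CPM in RA, a ratio of 1.93 (1.69 to 2.21), but 208 of its 771 butyrate UMIs sat in 1 cell. Cxcl10, another CXCR3 ligand, was 44.7 CPM in butyrate and 63.4 CPM in RA, a ratio of 0.70 (0.67 to 0.74). Ccl25, the CCR9 ligand, was 12.9 CPM in butyrate and 12.2 CPM in RA, a ratio of 1.06 (0.95 to 1.18).

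The ligands of the other members were Ccl28 for CCR10, with 17.7 CPM in butyrate and 22.7 CPM in RA (ratio 0.78), Cxcl13 for CXCR5, with 55.1 and 74.7 CPM (0.74), Cxcl16 for CXCR6, with 23.3 and 27.6 CPM (0.85), and Ccl20 for CCR6, with 7.64 and 8.26 CPM (0.93). Of these, the interval of Ccl20 held 1 (0.81 to 1.06). Single cells held up to 742 of the 3265 butyrate Cxcl13 UMIs. In macrophages Cxcl9 was 74.5 CPM in butyrate and 31.7 CPM in RA, a ratio of 2.35 (1.54 to 3.67), Cxcl10 was 304 and 180.2 CPM (1.69), and Cxcl13 was 29.4 and 119.8 CPM (0.25), where fibroblast markers summed to 407 CPM in butyrate and 41.6 CPM in RA.

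Among listed genes that held 50 UMIs or more and whose interval did not include 1, a ligand had the lowest ratio in B, T and plasma cells and macrophages. In T cells Ccl2 was 2.14 CPM in butyrate and 41.7 CPM in RA and Ccl7 0.557 and 27.9 CPM, found in 4.31% or fewer of the cells, where fibroblast markers summed to 59.2 CPM in butyrate and 459 CPM in RA. In B cells Ccl7 was 5.37 CPM in butyrate and 19.1 CPM in RA, and Ccl20 1.05 and 3.55 CPM, with fibroblast markers at 168 and 460.0 CPM. The part of those markers' cells in these ratios was not tested. In plasma cells Cxcl10 was 25.1 CPM in butyrate and 57.1 CPM in RA.

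On the GRCm38 build the members lie on 5 chromosomes, as GENCODE M21 annotates them. Ccr9 (chr9:123678439-123784330), Cxcr6 (chr9:123806475-123811760) and Ccr2 (chr9:124101950-124113557) lie in that order on the plus strand, 22144 bases apart from the end of Ccr9 to the start of Cxcr6 and 290189 bases from the end of Cxcr6 to the start of Ccr2. Cxcr5 lies elsewhere on that chromosome (chr9:44511787-44561877, minus strand). Ccr7 (chr11:99144196-99155077) and Ccr10 (chr11:101172997-101175443) are both on the minus strand. Ccr6 is at chr17:8236043-8257141 on the plus strand, and Cxcr3 (chrX:101731535-101734269) and S1pr1 (chr3:115710433-115715072) are on the minus strand. Over the 20 points, neighbours Ccr9 and Cxcr6 had r = -0.31 and Cxcr6 and Ccr2 had r = 0.42.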

How the data were processed

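The deposited tables hold raw counts, 1 UMI count per gene and barcode, with no normalization. Per the submitters' processing notes the tools were Seurat (4.0.3, 4.0.4) and Cell Ranger (6.0.1), with build mm10, whereas the file headers name Cell Ranger 7.1.0. The counting of intronic reads is not given in the sources used here.

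Kept barcodes held 500 UMIs and 250 genes or more, with a mitochondrial share of up to 25%, and were gated by the UMI minimums given above. UMIs were summed per gate and library and given as CPM with exact Poisson intervals. Shares carry Clopper-Pearson intervals, and ratios (butyrate over RA) the exact conditional binomial interval, all at 95%. Beside a count of 0 the limit is 3 counts of the total. These cover counting error only. With 1 library per group no test was made. The count of changed pairs uses 20 UMIs over both libraries and a 1.5-fold threshold. Cells were also thinned to 1000 UMIs, leaving out 295 shallower RA cells and 0 butyrate cells. No doublets were removed: Scrublet (scanpy 1.11.5) marked 2 butyrate and 0 RA barcodes by its own threshold, so it did not work here, and an alternative removed the 544 and 382 highest scores (0.8% per 1000 barcodes). Levels are not compared between genes, since 3' counts differ by gene.

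The members and lists were chosen with earlier results of these data known. Named genes are the 9 members, the 3 genes most alike to each (among genes with at least 200 UMIs; 1 of those for S1pr1 is not reported here), and the 2 highest and 2 lowest ratios of the homing list in B, T, plasma and macrophage gates, given at least 50 UMIs and an interval excluding 1. Itgae and Gpr15 in T cells are named outside this rule, as the adhesion and exit genes counted lower there. Of the 19 ligands, 15 had a single entry in the tables and were used. Identifiers were looked up in GENCODE M21 (GRCm38), where 31184 of 31253 were found. Python 3.11.15, numpy 2.4.6, scipy 1.17.1 and pandas 2.3.3 were used, and the interval code was tested on simulated data.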

Additional observations from a re-analysis of the deposited data

How the results depend on the processing

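No paired analysis was possible because each group has 1 library. The 9 leading ratios were Ccr6 and Cxcr5 in B cells, Ccr10 in plasma cells, Ccr2 in macrophages, and Ccr7, Ccr9, Cxcr3, Cxcr6 and S1pr1 in T cells. Removing the highest doublet scores, leaving out the 27 shared barcodes, a limit of 10% or no limit on mitochondrial UMIs, and a floor of 1000 or 2316 UMIs left all 9 within their intervals. Exclusive gates, where a cell may pass 1 gate, reversed Cxcr5 in B cells to 0.99 and moved Ccr6 in B cells to 1.11 and S1pr1 in T cells to 0.85. They emptied the plasma cell gate of butyrate, so plasma cells were let into the B cell gate in an alternative added after seeing the data, which gave Ccr10 0.50 and the same 0.99, 1.11 and 0.85. Stricter gates gave Cxcr6 0.68. The mean over cells gave Ccr6 1.13 and Cxcr5 1.03, and scaling to the median gene gave Ccr10 0.45. Thinned to 1000 UMIs, Ccr6 was 1.08 and Cxcr5 1.01 in B cells, the largest gate. In the smaller gates Ccr10 was 0.76, Cxcr3 3.01, S1pr1 0.86 and Ccr2 1.14, on fewer UMIs. Lef1 shares set alike, also added later, gave Ccr7 1.13, Cxcr6 0.88 and S1pr1 0.82. The count of 18 higher pairs was 5 when thinned, 11 at 50 UMIs and 5 at 2-fold. The count of 6 lower pairs was 3 when thinned, 3 at 50 UMIs and 12 at 1 UMI. Of the other ratios whose interval excluded 1, Cxcr5 in plasma cells under stricter gates (0.51) and Ccr7 in Trdc cells when thinned (0.92) reversed. Past 1.5-fold with an interval that held 1, and on the other side of 1 when thinned, were Ccr6 in Foxp3 cells (0.37), Ccr9 in Cd8b1 cells (0.78), and Ccr7 (0) and Ccr9 (1.42) in plasma cells. Stricter gates gave Ccr7 0 and Ccr9 4.57 in plasma cells, and the mean over cells gave Ccr6 0.96 in Foxp3 cells. Several alternatives kept fewer cells or fewer UMIs, and the cause of the shifts was not tested.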

Other observations

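Cells with several receptors were common at the plain depth. At least 2 of the 9 members were found in 70.2% of butyrate and 61.2% of RA T cells, and none in 10.4% and 16.4%. Cd8b1 cells without any member were 3.96% in butyrate and 7.41% in RA, Trdc cells 27.8% and 40.7%, and macrophages 36.4% and 36.9%. Thinned to 1000 UMIs, T cells without a member were 48.6% in butyrate and 49.5% in RA.

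Klrb1c is a gene of NK cells and innate lymphoid cells. Of Klrb1c-positive cells outside the leukocyte gates, of which 11 of 21 in butyrate and 9 of 15 in RA also held Epcam, 8 of 21 in butyrate and 5 of 15 in RA held Ccr2, and 3 and 0 held Cxcr6.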
